A study of Mus musculus with 483 samples.

Results

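The genes described here are 10 components and targets of bone morphogenetic protein (BMP) signalling: the receptors Acvrl1 (which encodes ALK1), Bmpr2 and Eng, the inhibitory Smads Smad6 and Smad7, the Id genes Id1, Id2 and Id3, and the modulators Bambi and Bmper. They were chosen by name for their place in the pathway, and all 10 were found among the 46078 genes of the count table. A gene was called measured when at least 5% of all cells held a read of it, which 15204 genes did. Of the 10, 9 were measured and Bmper was not.

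The data are Smart-seq2 single-cell transcriptomes of mouse cells sorted as CD31+ Kit+ CD45- from the aorta, gonads and mesonephros (AGM), the embryonic region in which blood stem cells arise from the endothelium of the aorta. The labels call each cell Ctrl or aDll4-treated, name no strain, age, embryo or culture, and do not explain aDll4; Dll4 is a Notch ligand. Each cell carries the number of 1 of 7 ICGS clusters, made by the submitters, and a library number. Since no label separates embryos or cultures, each treatment is 1 sample, no difference was tested, and every value below describes these libraries.

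BMP ligands bind a pair of type I and type II serine-threonine kinase receptors, and the type I receptor then phosphorylates Smad1, Smad5 or Smad9, which enter the nucleus with Smad4. In endothelium the type I receptor is often ALK1, which with BMPR2 and the co-receptor endoglin answers the circulating ligands BMP9 (encoded by Gdf2) and BMP10. Id genes are immediate targets and encode helix-loop-helix proteins without a DNA-binding region, which hold E proteins away from DNA. Smad6 and Smad7 are also targets and damp the signal that induced them. In the AGM, BMP4 from the ventral tissues is a known influence on the emergence of blood stem cells.

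Smad-binding motifs were looked for in the RefSeq promoter windows (GRCm38.p6), each running from 250 bases before to 50 after a start site. Windows were found for 6 of the 10 genes (Id2, Id3, Smad6, Eng, Bmpr2 and Bmper). Parts of the Smad6 and Id2 windows are shown because each holds a letter pattern that Smad proteins are known to bind, in capitals. The first is chr9:64022056-64022175 on the minus strand, and its GTCTAGAC begins 4 bases before the annotated start. The second is chr12:25096254-25096342 on the minus strand, with GGCGCC near the far end of the window from the start. That RefSeq start lies inside the Id2 gene as GENCODE draws it (25093799 to 25097140), so the stretch is within the gene body, free of exons, and not before the gene's outer end.
Smad6: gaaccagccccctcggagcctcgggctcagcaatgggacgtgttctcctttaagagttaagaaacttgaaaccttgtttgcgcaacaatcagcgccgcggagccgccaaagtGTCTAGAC
Id2: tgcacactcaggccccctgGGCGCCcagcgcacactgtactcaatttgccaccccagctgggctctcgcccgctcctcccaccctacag
Both motifs read the same on either strand. GTCTAGAC was held by 70 of 32851 windows of the same length (0.213%), and among the 6 by Smad6 alone. GGCGCC was held by 11.9% of windows, and also by that of Bmpr2. The shorter Smad box CAGAC, searched on both strands, was held by 49.6% of windows and by those of Id3 and Eng. A match is a description of the letters and not evidence of binding in these cells.

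Cells held between 123097 and 2870618 reads in genes, with medians of 900286 in Ctrl and 869802 in treated cells. Of the Ctrl cells, 97, 73, 31, 10, 6, 14 and 8 belong to clusters 1 to 7 in order, and of the treated cells 86, 72, 36, 12, 7, 19 and 12. Levels are counts summed over cells and scaled to a common total (CPM). The summed level of 9 endothelial markers was 5612 to 8053 CPM in clusters 1 to 3, against 90.1 to 363 in clusters 4 to 7. Clusters 6 and 7 had the highest sums of the 10 hematopoietic markers (1575 and 1702 CPM), and cluster 5 that of the 8 mesenchyme and smooth muscle markers (13531 CPM). The CD45 gene Ptprc, negative in the sort, had a read in 12 cells. Cluster 4 led none of the marker lists and had 90.1 CPM of the endothelial and 1049 CPM of the mesenchyme markers, so it is called by its number. The labels call all cells hematopoietic stem cells, while the 395 cells of clusters 1 to 3 carried the endothelial markers and 101.4 to 270.9 CPM of the hematopoietic ones. Library numbers fall into block 2, with 63 Ctrl and 66 treated cells, and block 1, with the rest, and into 6 runs of 96 numbers. Of the treated cells, 0 in block 1 were positive for Xist, and in block 2 61 were positive for Xist and 0 for Y-linked transcripts, while Ctrl cells of both kinds stood in both blocks. Sex and treatment are therefore partly confounded within a block.

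Among the receptors, Eng had the highest level per length. Eng, which encodes the co-receptor endoglin (chromosome 2, 32646595 to 32682669, plus strand), stood at 123.3 CPM per kb of exon, Acvrl1 (chromosome 15, 101128522 to 101145336, plus strand) at 35.9 and Bmpr2 (chromosome 1, 59763400 to 59879014, plus strand) at 4.97. Eng was read in 95.9%, Bmpr2 in 83.2% and Acvrl1 in 79.9% of all cells. Exons of Eng overlap those of Fpgs on the other strand (43.9 CPM), and Smart-seq2 does not mark strand, so some Eng reads may belong to Fpgs. Acvrl1 overlaps an antisense gene with 0.201 CPM.

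Acvrl1 and Eng followed the endothelial clusters. Acvrl1 was 237.2 CPM in cluster 1 (exact Poisson 95% interval 234.98 to 239.53, counting error only), 158.6 in cluster 2 and 101.02 in cluster 3. It was 42.6 CPM in cluster 5, where 1 cell held 42.3% of the reads, 4.05 in cluster 4, 4.49 in cluster 7 and 0.357 in cluster 6. A single read was still seen in 27.3% of cluster 6 cells, while no cell of that cluster had 10 reads or more. With 10 reads as the limit, Acvrl1 was found in 90.7%, 75.9% and 43.3% of the cells of clusters 1, 2 and 3, and in 4.55% of cluster 4. Eng stood at 688, 613 and 401 CPM in clusters 1, 2 and 3, and every cell of clusters 1 and 2 held a read of it. In cluster 4 it was at 1.95 CPM, and in the hematopoietic-marker clusters 6 and 7 at 26.004 and 33.6 CPM. In cluster 6, 1 cell held 50.6% of the reads, and the Ctrl level there (1.46 CPM) was close to that of cluster 4 (1.26 CPM).

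Bmpr2, the type II receptor, was less tied to the endothelial clusters. Its level was 117.01, 95.1 and 69.9 CPM in clusters 1, 2 and 3, and 82.3 and 67.6 in clusters 4 and 5, where Acvrl1 and Eng were low. It was 18.96 CPM in cluster 6 and 1.86 in cluster 7. The neighbours in this order between cluster 2 and cluster 5 differ by less than the spread between cells, whose lowest, median and highest values in cluster 3 were 0, 11.2 and 867 CPM.

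The inhibitory Smads were the sparsest of the measured genes. Smad6 (chromosome 9, 63953076 to 64022059, minus strand), which blocks the type I BMP receptors, was at 1.26 CPM per kb and read in 15.9% of cells. Smad7 (chromosome 18, 75367529 to 75395935, plus strand), which acts on both BMP and TGF-beta receptors, was at 2.41 CPM per kb and read in 31.9%. Smad7 was 8.33 CPM in cluster 1 and 11.3 in cluster 2, then 20.3, 20.8 and 18.98 in clusters 3, 4 and 5, whose counting intervals overlapped. Smad6 was 2.62 CPM in cluster 1 and 10.98 in cluster 5, and in cluster 3 a single cell held 44.7% of its reads.

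The 3 Id genes shared a pattern unlike that of the receptors. Per kb of exon, Id3 (chromosome 4, 136143497 to 136145755, plus strand) was at 149.2 CPM, Id1 (chromosome 2, 152736251 to 152737410, plus strand) at 45.1 and Id2 (chromosome 12, 25093799 to 25097140, minus strand) at 26.1. All 3 were highest in cluster 4, at 789, 250 and 455 CPM, and second highest in cluster 5, at 377, 99.95 and 184.05 CPM. In the endothelial clusters Id3 was 245 to 298 CPM, Id1 42.7 to 48.2 and Id2 29.8 to 65.985. The highest values were thus in the cluster where Acvrl1 and Eng were close to 0. All 3 Id genes were lowest in clusters 6 and 7, where Id3 was at 8.62 and 8.99 CPM and 1 cell held 93.8% and 96.2% of its reads. A read of each of the 3 was found together in 72.7% of cluster 4 cells (exact Clopper-Pearson 95% interval 49.8 to 89.3%) and 69.2% of cluster 5, but in 26.2%, 28.97% and 16.4% of clusters 1, 2 and 3, in 18.2% of cluster 6 (6 of 33 cells), and in 0 of 20 cells of cluster 7.

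Reads of Id1 and Id2 were found in some endothelial cells and not in others of the same cluster, and a cell without a read may still express the gene. In cluster 1 the lowest, median and highest Id1 values over cells were 0, 0.782 and 642 CPM, and in cluster 2 they were 0, 1.11 and 736 CPM. Id2 had medians of 0 in both, with highest values of 990 and 1399 CPM. Id3, in contrast, had medians of 122.4 and 121.4 CPM and a read in 95.1% and 88.97% of cells.

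Bambi (chromosome 18, 3507923 to 3516404, plus strand), a pseudoreceptor that lacks the kinase part and dampens signalling, was the most evenly spread. It lay between 154.4 and 206.1 CPM in clusters 1 to 5 and was 35.3 and 8.84 CPM in clusters 6 and 7. Bmper (chromosome 9, 23223076 to 23485200, plus strand), a secreted protein that binds BMPs, had a read in 15 cells, and 1 cell held 64.7% of its reads. None was found in cluster 6, where 3 reads would be 0.0892 CPM. Its ratios below rest on that cell and a few others.

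**Figure D1:**
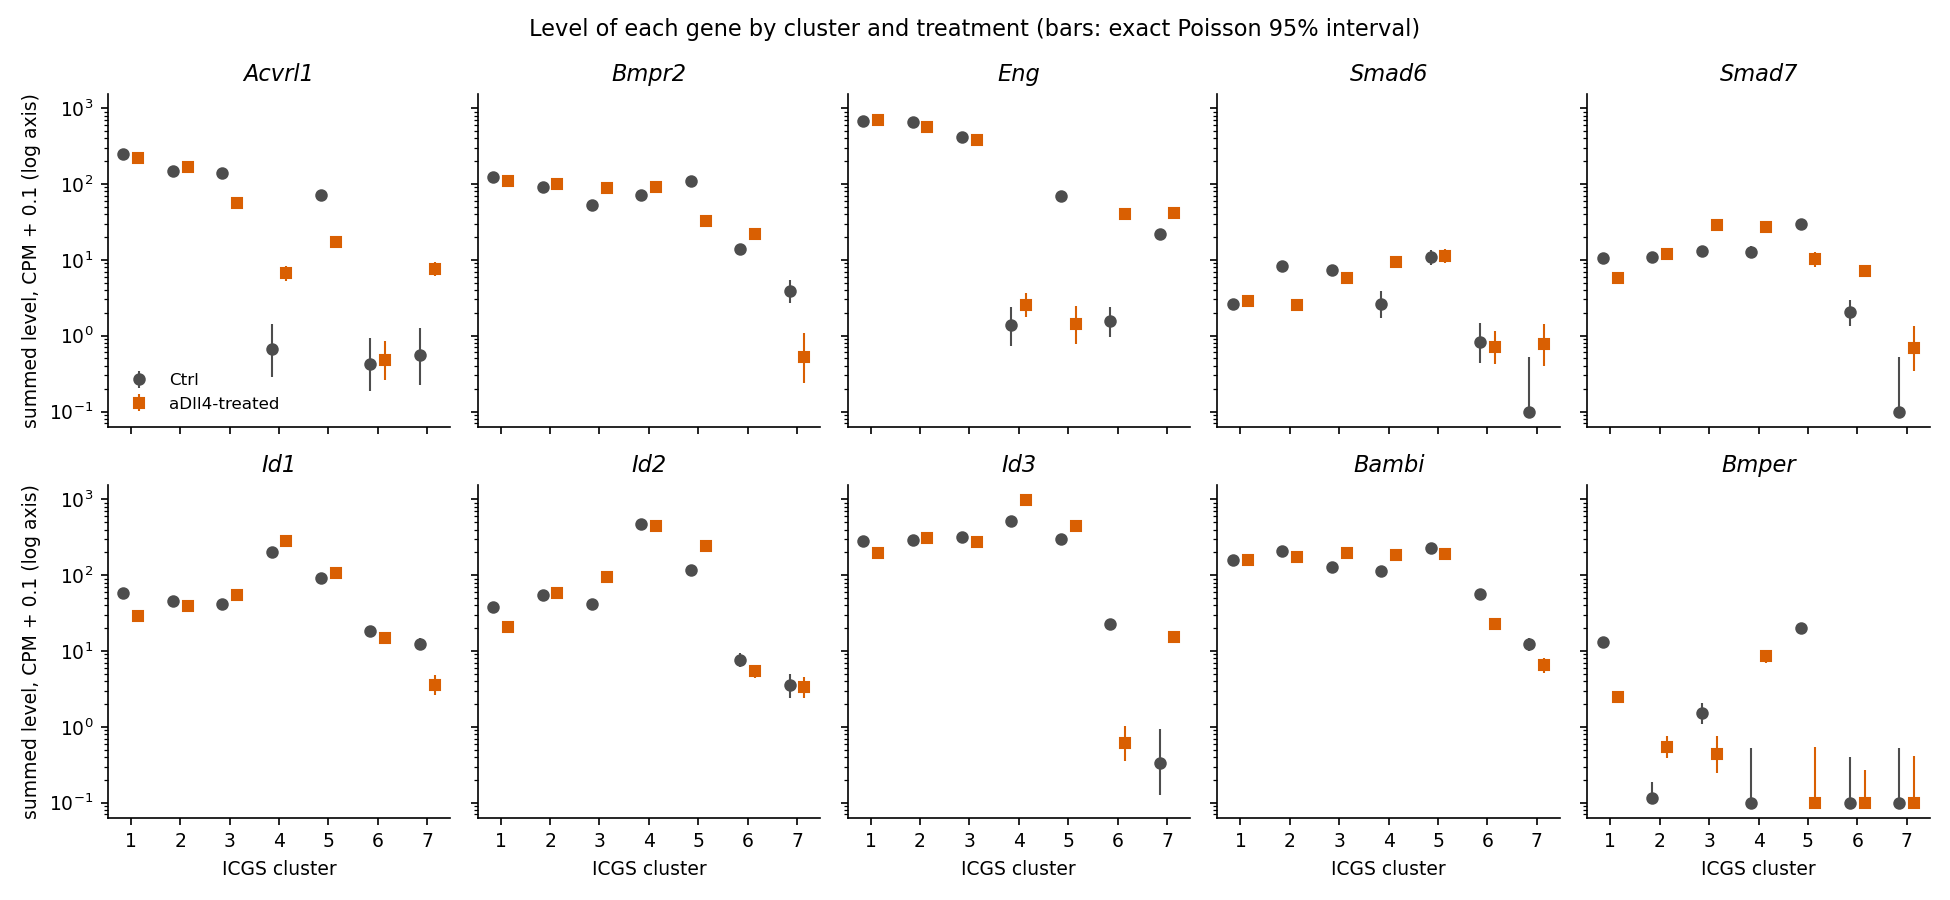
Summed level of each gene (CPM + 0.1, log axis; a level of 0 is drawn at 0.1) in the 7 ICGS clusters, with grey circles for Ctrl and orange squares for aDll4-treated cells and bars for the exact Poisson 95% interval, which covers counting error only. Acvrl1 and Eng are highest in clusters 1 to 3, the 3 Id genes in cluster 4 (Id3 789 CPM over both treatments).

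Over all cells the treatments differed little in any measured gene of the set. Each gene's level in treated cells was divided by that in Ctrl cells after adding 1 CPM, and the log2 of this ratio was below 0 for 8 of the 10 (7 of the 9 measured), where 47.8% of all measured genes were below 0. Its median over the 9 was -0.11, against 0.01 over all measured genes. A difference was called when the log2 ratio reached 0.5 either way. None of the 9 measured genes was called, against 12.3% of all measured genes, and Bmper was the sole call among the 10. A read was found in a larger share of treated cells for 5 of the 10 (Id2, Smad6, Smad7, Bmper and Bambi). This count was not compared with that among all measured genes. The 5 differences were small, from 0.35 percentage points for Bmper to 3.25 for Bambi, and the Newcombe interval of each included 0. Such an interval takes each cell as a separate draw and does not cover spread between embryos or cultures. For Smad6, Bmper and Bambi the level was lower in treated cells while the share was slightly higher.

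Over cells of all clusters, Acvrl1 and Eng, the ALK1 receptor and its partner, were lower in treated cells in both blocks and in 5 of the 6 runs, and so was Smad6. These 3 are 3 of 10, and 9.21% of all measured genes met the same condition. Acvrl1 stood at 169.7 CPM in Ctrl (168.04 to 171.5) and 135.9 in treated cells (134.3 to 137.4). Over the 6 runs it ranged from 92.4 to 215.9 CPM in Ctrl and from 78.6 to 209.4 in treated cells, so the runs of the treatments overlapped. The log2 ratio was -0.32 over all cells, -0.41 in block 1 and -0.21 in block 2. The share of cells with an Acvrl1 read was 83.3% in the Ctrl and 76.6% in the treated set, a difference of -6.62 percentage points (Newcombe 95% interval -13.7 to 0.538).

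Eng stood at 531 CPM in Ctrl and 466 in treated cells, a log2 ratio of -0.19. Its runs spanned 424 to 735 CPM in Ctrl and 372 to 570 in treated cells, again overlapping. The endothelial markers moved with both genes: all 9 were lower in treated cells, with a median log2 ratio of -0.24, and their summed level was 6402 CPM in Ctrl and 5479 in treated cells. Within clusters 1 to 3, where that sum was 7617 and 7166 CPM, the ratio was -0.17 for Acvrl1 and -0.06 for Eng. In these clusters Eng was at 0.04 in block 1 and -0.32 in block 2, so its sign differed between blocks. Acvrl1 was at -0.26 and -0.08. Over all cells both ratios were larger in size, at -0.32 for Acvrl1 and -0.19 for Eng. Clusters 1 to 3 held a smaller share of the treated cells than of the Ctrl cells. Levels are scaled to a common total, so they do not give the amount of RNA per cell. How much of the difference over all cells came with the mix of clusters was not tested, and neither was the part of the markers in it.

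Smad6 stood at 4.74 CPM in Ctrl (4.46 to 5.04) and 3.35 in treated cells (3.11 to 3.60), a log2 ratio of -0.40. In runs it spanned 2.02 to 6.79 and 0.875 to 6.21 CPM, and in run 6 the treated cells were the higher. Yet 16.8% of treated and 15.1% of Ctrl cells held a read of it. Smad7 was at 10.8 and 10.998 CPM and Bmpr2 at 92.8 and 85.8 CPM, with log2 ratios of 0.03 and -0.11.

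Of the Id genes, Id1 was at 55.99 CPM in Ctrl and 48.5 in treated cells and Id3 at 274 and 260, with log2 ratios of -0.20 and -0.08. Id2 was at 59.4 and 67.8 CPM, with a ratio of 0.19. The runs crossed in all 3: Id1 was lower in treated cells in 4 of 6 runs, with run ratios from -1.65 to 0.98, and Id2 and Id3 in 3 of 6. Id1 was read in 120 cells of each treatment, 50.2% of Ctrl and 49.2% of treated cells.

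Block by block, 9 of the 10 genes were lower in treated cells in block 1 (48.8% of all measured genes were) and 7 in block 2 (47.6%). Called in block 1 was Smad6 alone, 1 of 10 against 15.6% of measured genes, at -0.62, and its ratio in block 2 was -0.12. Called in block 2 were Bambi and Bmper, 2 of 10 against 30.5% of measured genes. Among Y-positive cells of block 1 the called were Smad6, Smad7 and Bambi, 3 of 10 against 24.8%, and among Xist-positive cells of block 2 they were Id1, Id3, Eng, Bmper and Bambi, 5 of 10 against 39.5%. Bambi had opposite signs in the blocks. It was 180.4 CPM in Ctrl and 129.1 in treated cells of block 1, and 108.2 and 185.7 in block 2, for log2 ratios of -0.48 and 0.77. Among Y-positive cells of block 1 alone the ratio was -0.83, and among Xist-positive cells of block 2 it was 1.14, and since these are cells of different sex, a split by block and one by sex cannot be told apart here. Bmper was 6.39 CPM in Ctrl and 1.496 in treated cells, but 1 Ctrl cell of run 6 held 79.4% of the Ctrl reads. Its ratio was -1.57 over all cells, 0.21 in block 1 and 0.12 without run 6.

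**Figure D2:**
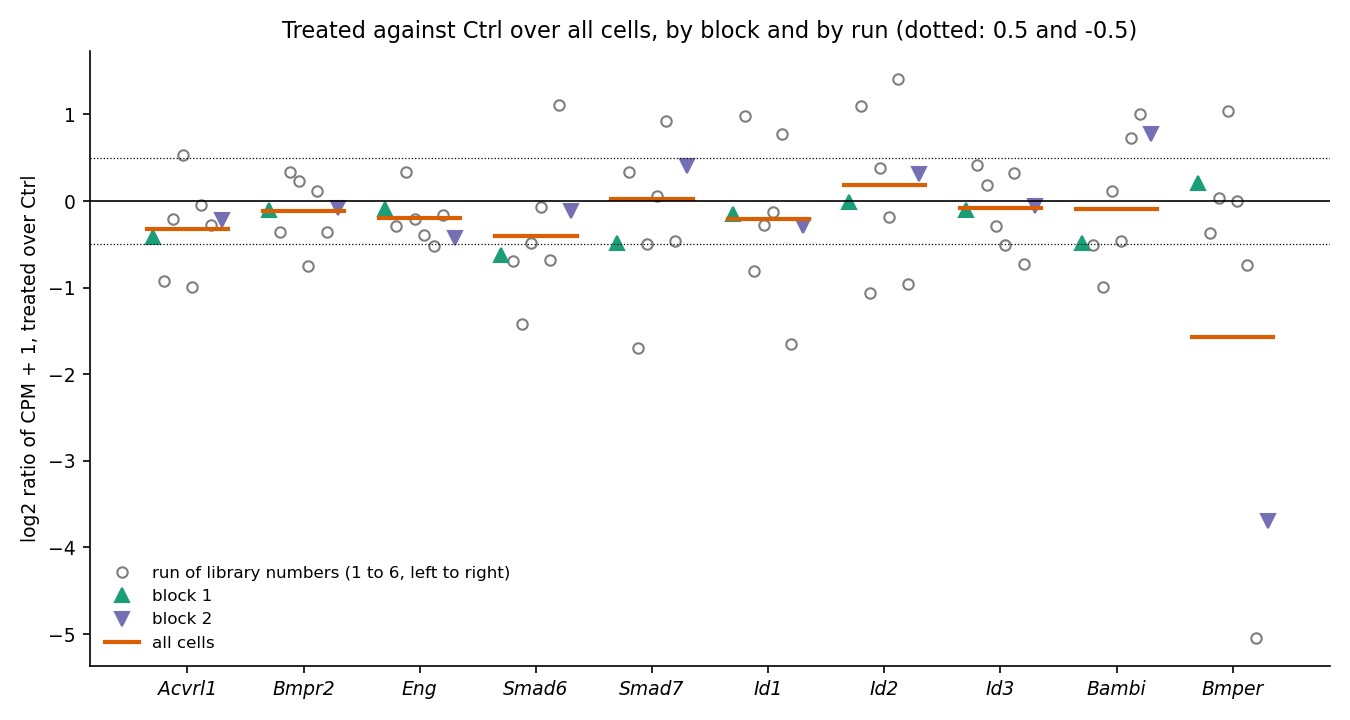
Log2 ratio of treated over Ctrl level (CPM + 1) for each gene over all cells (orange line), in block 1 (green triangle, up), block 2 (purple triangle, down) and the 6 runs of library numbers (open circles, in order), with dotted lines at 0.5 and -0.5. Acvrl1, Eng and Smad6 have 5 of 6 runs below 0, and Bambi has blocks of opposite sign (-0.48 and 0.77).

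Within the endothelial clusters together the treatments stood further apart than over all cells for Id1, Id3, Smad6 and Bmper. They stood closer together for Id2, Smad7, Acvrl1, Eng, Bmpr2 and Bambi. The median log2 ratio over the 9 measured genes was -0.06 in these clusters and -0.11 over all cells. The log2 ratio there was -0.22 for Id3 and 0.02 for Id2. Over clusters 1 to 3 together, Id1 was 52.1 CPM in Ctrl and 36.5 in treated cells, a log2 ratio of -0.50, and Smad6 was 5.10 and 3.08 CPM, a ratio of -0.58. With Bmper these were the 3 of 10 called, against 14.7% of all measured genes. The share of cells with an Id1 read was 47.8% in Ctrl and 47.9% in treated cells, so the lower level came with no lower share of cells. In block 1 the Id1 ratio was -0.29 and in block 2 it was -1.36. These calls rest on single runs: Id1 was at -0.34 without run 3 and -0.32 without run 6, and Smad6 at -0.41 without run 2 and -0.46 without run 5.

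Cluster 1 held the widest set of lower Id genes. Of the 10, 5 were called lower there (Id1, Id2, Id3, Smad7 and Bmper) and none higher, where 13.2% of all measured genes were called lower and 9.63% higher. Id1 was 58.99 CPM in 97 Ctrl cells and 29.2 in 86 treated cells (log2 ratio -0.99), Id2 37.7 and 20.5 (-0.85), Id3 286 and 197.5 (-0.53) and Smad7 10.6 and 5.63 CPM (-0.81). The shares of cells with a read were nearly equal for Id1 (50.5% and 51.2%) and were 93.8% and 96.5% for Id3. Without the highest cell of each treatment the Id3 ratio was -0.39. The mean of the cells' own log2 values (CPM + 1) differed less, by -0.31 for Id1, -0.13 for Id2 and -0.06 for Id3. In block 1 these differences were 0.03, -0.09 and 0.35, and in block 2 they were -2.14, -0.35 and -2.31.
The Id differences were larger in block 2, with 16 Ctrl and 13 treated cells. There Id1 was 57.6 and 2.83 CPM and Id3 365 and 53.1, and 1 of the 16 Ctrl cells held 57.9% of the Ctrl Id1 reads and 1 held 51.4% of the Ctrl Id3 reads. Without the highest cell of each treatment the ratios were -3.92 for Id1 and -2.06 for Id3, while in block 1 Id1 was 59.4 and 36.2 and Id3 259.9 and 235.9. For Id2, 1 Ctrl cell held 47.2% of the Ctrl reads of cluster 1, and the ratio was -0.25 without the highest cell of each treatment and 0.03 without run 6. The Id1 ratio was -0.49 without run 3 and -1.64 without run 2. Id3 was not called without run 3 (-0.36), run 5 (-0.41) or run 6 (-0.30) and was at -0.96 without run 2. Smad7 had its lower value in block 1 (9.14 and 2.85 CPM) and not in block 2 (15.1 and 16.1 CPM), and was at -1.43 without run 5.

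In cluster 2 the Id genes stood close together in both treatments, with log2 ratios of -0.24 for Id1, 0.08 for Id2 and 0.09 for Id3. Smad6 was 8.07 CPM in 73 Ctrl cells and 2.47 in 72 treated cells, a ratio of -1.39 that was -1.36 in block 1 and -1.73 in block 2. In block 2, 1 Ctrl cell held 79.3% of the Ctrl reads, and without the highest cell of each treatment the ratio there was -0.60. Smad6 was the one measured gene of the 9 called in cluster 2, against 26.4% of all measured genes. A read of it was found in 14 Ctrl and 11 treated cells, and among Xist-positive cells of block 2 alone the ratio was 1.38.

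Cluster 3 gave calls in both directions, in a cluster where 48.7% of all measured genes were called. Acvrl1 was 140.8 CPM in 31 Ctrl cells and 56.3 in 36 treated cells, and 77.4% of the Ctrl cells but 18 of the 36 treated cells held a read, a difference of -27.4 percentage points (-46.6 to -4.22). That difference lay in block 2 (219.7 and 44.3 CPM), and in block 1 the treated cells were the higher (27.5 and 71.1 CPM). Id2 was 41.2 CPM in Ctrl and 93.9 in treated cells, Smad7 13.1 and 28.5, and Bmpr2 52.4 and 89.5, and each of these was higher in treated cells in both blocks. For Id2 in block 2, 1 of 16 treated cells held 56.9% of the treated reads, and without the highest cell of each treatment the ratio there was -0.03. Bambi (126.8 and 193.2 CPM) was higher in block 2 and lower in block 1. Leaving out run 5 took Smad7 to 0.07 and Bambi to 0.15, leaving out run 6 took Bambi to 0.34, and Acvrl1 was at -0.70 without run 6. The read counts per cell were lower in this cluster, with medians of 697405 in Ctrl and 590697 in treated cells.

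**Figure D3:**
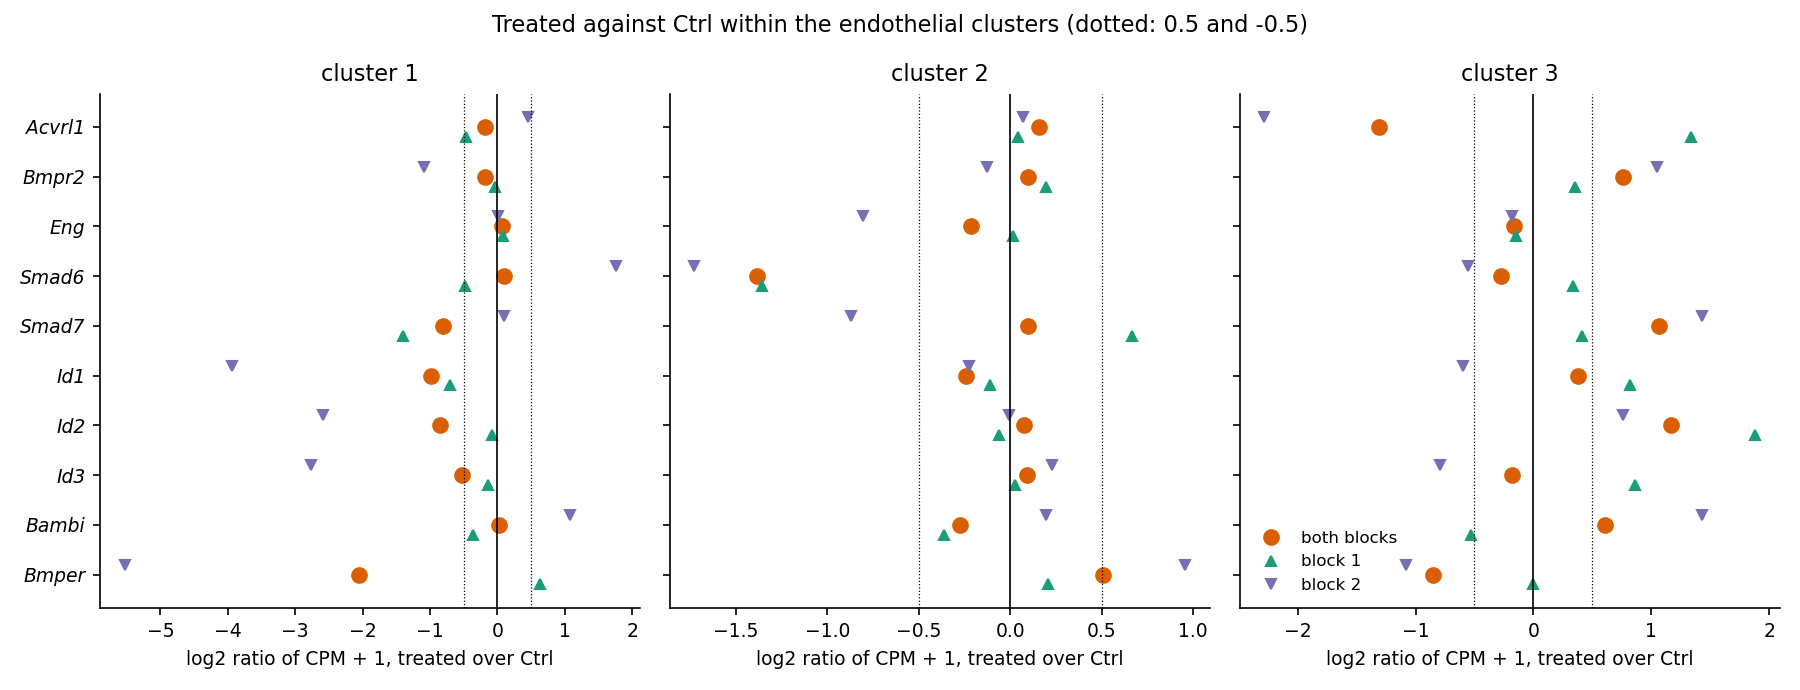
Log2 ratio of treated over Ctrl level (CPM + 1) within ICGS clusters 1, 2 and 3, for both blocks together (orange circle), block 1 (green, up) and block 2 (purple, down); dotted lines mark 0.5 and -0.5, and the horizontal axes differ. In cluster 1 the 3 Id genes lie left of -0.5 and further left in block 2, and in cluster 3 Acvrl1 has blocks of opposite sign.

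In the smaller clusters 4 and 5 together, 16 Ctrl and 19 treated cells, Id1 was 154.5 CPM in Ctrl and 210.3 in treated cells, Id2 310 and 362, and Id3 423 and 762. Of the 10 genes 5 were called, against 46% of all measured genes. The Id3 ratio of 0.85 came with a read in all Ctrl cells and in 84.2% of the treated ones.

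The other genes of the pathway were read from fixed lists, given as counts of measured genes below and above 0 over all cells. Of 16 BMP and activin ligands 4 were measured, 1 lower and 3 higher. Bmp4 was 37.2 CPM in Ctrl and 35.9 in treated cells and Bmp2 26.5 and 29.9. Bmp4 was highest in clusters 4 (109.2 CPM) and 5 (186.4 CPM), the clusters of the highest Id levels, and was 9.78, 51.4 and 50.6 CPM in clusters 1, 2 and 3. Gdf2, which encodes the ALK1 ligand BMP9, had 0 reads, and Bmp10 a read in 1 cell. Bmp7 was 3.40 and 5.82 CPM (log2 ratio 0.63) and was read in 27 cells.

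Of 8 measured further receptors 7 were lower, against 47.8% of all measured genes. Tgfbr2, the type II receptor of TGF-beta, was 208.1 CPM in Ctrl and 143.9 in treated cells, a log2 ratio of -0.53 that was below 0 in 6 of 6 runs and -0.40 in clusters 1 to 3. Tgfbr1, its type I partner, was 65.7 and 60.6 CPM. Among the TGF-beta ligands Tgfb1 was 3.68 and 7.15 CPM (0.80, above 0 in 6 of 6 runs), and Tgfb2 71.98 and 60.7. In clusters 1 to 3 the Tgfb1 ratio was 0.67, while clusters 6 and 7, with 22 Ctrl and 31 treated cells, had its highest levels outside it at 13.5 and 9.77 CPM.

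The receptor-activated and common Smads, which carry the signal, had 2 of 5 lower and none called. Smad5 was 135.9 and 117.7 CPM and Smad1 70.1 and 81.3. Both followed the endothelial clusters, Smad5 at 162.2, 147.7 and 112.04 CPM and Smad1 at 111.1, 78.6 and 55.6 in clusters 1, 2 and 3. Smad9 was read in 4 cells. Of the 10 intracellular regulators of Smads, 5 were lower and 5 higher with none called. Fkbp1a, which holds type I receptors inactive, was the most abundant at 1130 and 1109 CPM, and the transcriptional corepressor Skil was 117.7 and 108.8. Of 8 measured secreted antagonists and modulators, 5 were lower. Fstl1 was 376 and 341 CPM and the BMP-cleaving enzyme gene Bmp1 93.5 and 68.6, while Tll1, a related protease, was called at 15.3 and 10.3 CPM (-0.53).

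The list of endothelial BMP9 and ALK1 response genes had 5 of 8 lower and 3 higher, with 4 called lower and 2 higher, where 12.3% of all measured genes were called. The lower ones were Gja4, encoding the gap junction protein connexin 37 (104.5 and 48.2 CPM, log2 ratio -1.10, below 0 in 5 of 6 runs), Efnb2, encoding an ephrin ligand of arteries (60.8 and 38.4, -0.65, 6 of 6 runs), Id4 (2.85 and 0.645, -1.23, 6 of 6 runs) and Hey1 (204.5 and 94.2, -1.11). The Hey1 ratio was -2.03 in block 1 but 0.86 in block 2. Gja4, Efnb2 and Hey1 are also on the arterial list and are known Notch-responsive genes, and 6 of 7 measured arterial markers were lower, with a median of -1.001, against 47.8% of all measured genes lower. Higher was Tmem100, an ALK1-dependent endothelial gene (5.82 and 12.4 CPM, 0.97, above 0 in 5 of 6 runs), and Msx2 (5.55 and 12.8), the last with opposite signs in the blocks. Tgfbi, a TGF-beta response gene that encodes a matrix protein, was 125.3 and 106.1 CPM. The E proteins and their partners, which Id proteins bind or compete with, had 3 of 5 lower and none called, with Tcf4 at 298 and 305 CPM and Tcf3 at 158.6 and 142.8.

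Co-variation between cells was read as Spearman's rho over the 395 cells of clusters 1 to 3, on log2(CPM + 1) after the mean of each cluster, treatment and block had been subtracted. Cells share libraries and depth, so rho is a description and has no p. Of the 45 pairs, 2 reached 0.2: Id1 with Id3 at 0.42 and Id2 with Id3 at 0.21. Of all pairs of genes read in at least 25% of these cells, 1.71% reached 0.2 (1.25% with ranks taken within each group of cells), and the median rho was 0.05. Id2 with Smad7 (0.20), Acvrl1 with Bambi (0.17) and Id1 with Id2 (0.17) came next below. Pairs of the receptors were near 0, with 0.08 for Acvrl1 and Eng, 0.02 for Acvrl1 and Bmpr2 and -0.05 for Eng and Bmpr2, and Acvrl1 and Id1 stood at -0.02.

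The Id1 and Id3 relation was read in each treatment and block. It was 0.48 in Ctrl, 0.34 in treated cells, 0.40 in block 1 and 0.46 in block 2, and between 0.26 and 0.54 in the 6 runs. It was 0.40 in cluster 1 and 0.50 in cluster 2 but 0.14 in cluster 3. Cells with an Id1 read had 389 CPM of Id3, and cells without one had 149.3 CPM. The cells' total reads had rho of 0.13 with Id1 and 0.16 with Id3, and after all cells were thinned to 120000 reads the pair stood at 0.40.

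For genes with many zeros the subtraction of means orders the zeros by stratum. Smad6 and Bmper had rho of -0.43, and with ranks taken within each stratum, an alternative added after the data were seen, it was 0.14. Under those ranks Id1 with Id2 (0.20) joined the pairs at 0.2 or above and Id2 with Smad7 was again just under it, while Id1 with Id3 was 0.41. Smad6, read in 60 of the 395 cells, then had its highest rho among the other 9 genes with Id1 (0.17). Id1 was 65.9 CPM in cells with a Smad6 read and 40.3 in those without.

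**Figure D4:**
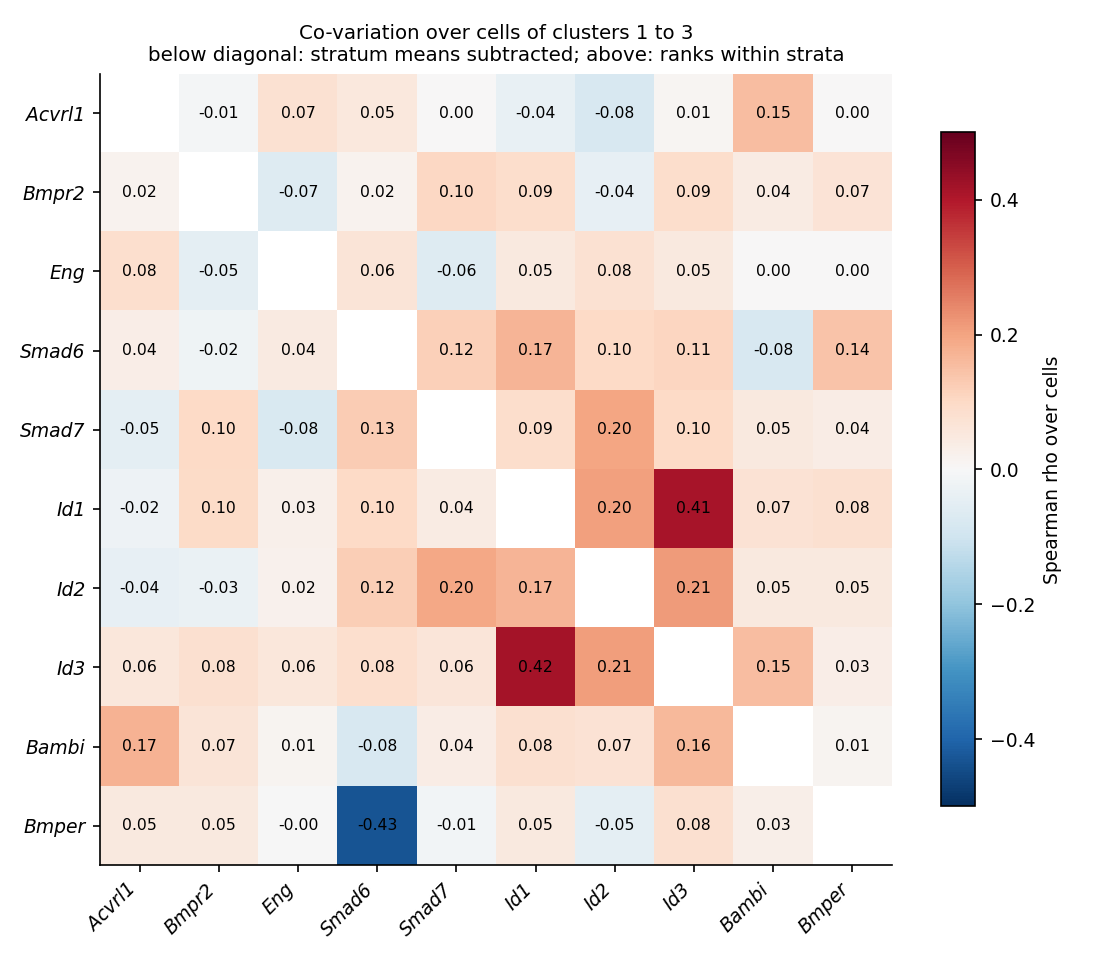
Spearman's rho between each pair of the 10 genes over the 395 cells of clusters 1 to 3, below the diagonal with the means of cluster, treatment and block subtracted and above it with ranks taken within those strata (red positive, blue negative). Id1 with Id3 is the highest on both sides (0.42 and 0.41), and Smad6 with Bmper turns from -0.43 to 0.14.

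The 5 genes with the highest rho to a member were taken from 10153 genes read in at least 25% of these cells. For Id1 they were Id3 (0.42), the serum and glucocorticoid-induced kinase gene Sgk1 (0.33), the immediate early gene Fos (0.30), the predicted gene Gm11025 (0.30, but 0.04 after thinning) and Rasl11b (0.28). For Id3 they were Id1, Gm5763, Otub1, Sgk1 and Ccdc85b at 0.28 to 0.42. Id1 and Id3 thus shared Sgk1, and Fos had rho of 0.20 with Id3. Eng went with the endothelial surface genes Plvap (0.32), Pecam1 (0.29) and Mmrn2 (0.29), then Nectin2 and Entpd1, and stood at 0.39 with the mean of the 9 endothelial markers. Acvrl1 went with the glucose transporter gene Slc2a1 (0.31), Anxa2, Ezh1, Gm1840 and Tspan9, and with the endothelial markers stood at 0.19. Bmpr2 went with Sept2, Map4k4, Jmjd1c, Wdr26 and Ppfibp1 at 0.26 to 0.28. Smad7 went with the endothelin gene Edn1 (0.28), Pdlim1, Aes, Col3a1 and Gm5093, and of these Edn1 alone stayed above 0.2 (0.24) with ranks within strata. The genes found for Smad6 (Msrb2, Fbn1, Gm8818, 2810402E24Rik and Ezr, 0.26 to 0.35) were at -0.06 to 0.18 with ranks within strata. Between 0.217% and 0.63% of the compared genes reached 0.2 with any of the 10.

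Id2 stood apart from Id1 and Id3 in its relation to Dll4. Its rho with Dll4 was -0.29 and with Kit -0.24, and it was 0.28 with Nr2f2, the venous transcription factor COUP-TFII, 0.27 with the mean of the 4 venous markers and -0.15 with the arterial ones. Id1 and Id3 had rho of -0.03 and 0.00 with Dll4. The 46 cells of clusters 1 to 3 without a Dll4 read had 147.1 CPM of Id2 and the 349 with one had 34.1. The summed values were 146.7 and 34.3 CPM in Ctrl cells and 147.5 and 33.8 CPM in treated cells. By cluster they were 160.1 and 45.99 CPM in cluster 2. In cluster 3, which held 27 of the 46 cells, they were nearly equal (67.6 and 65.1 CPM), and cluster 1 had 2 such cells. Single cells can weigh on such sums, as the highest Id2 value of a cell was 989.6 CPM in cluster 1 and 1399 CPM in cluster 2. Over clusters 1 to 3, 1 cell held 20.5% of the Ctrl Id2 reads and 1 cell 12.1% of the treated ones. The close sums of Ctrl and treated cells may thus rest on single cells, which was not tested. The Dll4 log2 ratio of treated over Ctrl was -1.001 over all cells and -0.86 in clusters 1 to 3.

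**Figure D5:**
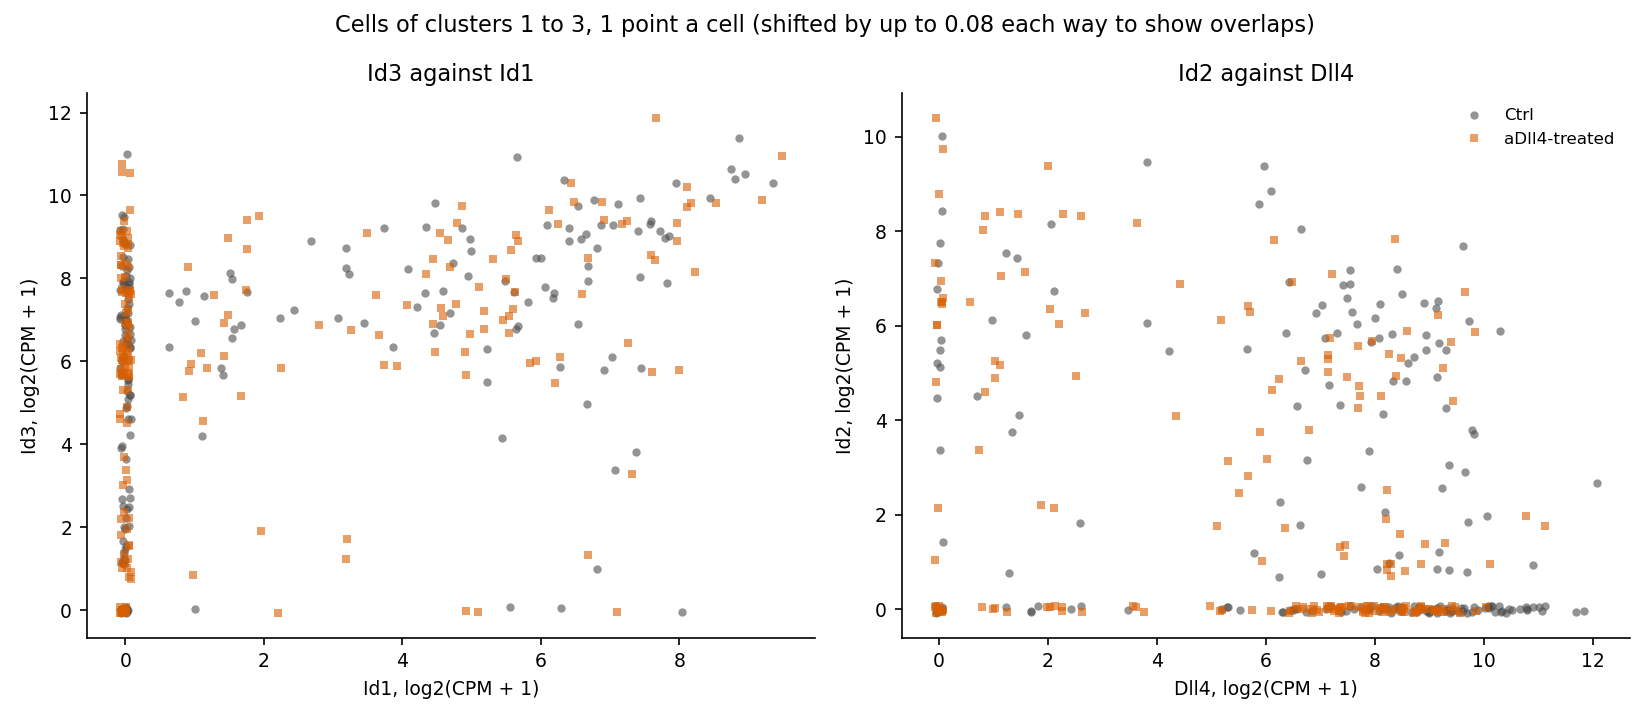
Each point is 1 of the 395 cells of clusters 1 to 3 (grey circle Ctrl, orange square aDll4-treated), with Id3 against Id1 on the left and Id2 against Dll4 on the right, both as log2(CPM + 1) and shifted by up to 0.08 to show overlaps. Cells with an Id1 read lie higher in Id3 (389 against 149.3 CPM summed), and many cells high in Id2 have few or no reads of Dll4.

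Cells of clusters 1 to 3 with a Runx1 read, a transcription factor needed for blood emergence, were 70 of 395. They had 39.02 CPM of Id1 against 46.1 in the rest, 50.4 of Id2 against 43.2 and 270 of Id3 against 272. Smad7 was 17.8 CPM in cells with a Runx1 read and 9.54 in those without. In cluster 1 it was 23.03 and 5.90 CPM and in cluster 3 14.3 and 23.4, so the order differed between these clusters. Smad7 was read in 27.3% of cluster 1 cells. There 1 cell held 23.4% of the Ctrl reads of Smad7 and 1 cell 44.1% of the treated ones. The Smad7 sums by Runx1 may thus rest on single cells, which was not tested.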

How the data were processed

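Cells were processed by Smart-seq2 with Nextera XT libraries, per the labels' protocols. The deposited values are raw read counts per gene and cell, made by the authors with GSNAP and HTSeq 0.6.0 on mm10, per the submitters' processing notes; no source used here gives the annotation release, the strand setting or filters on cells. Smart-seq2 has no molecular identifiers, so intervals cover counting error only. All 483 cells (239 Ctrl, 244 treated) were used, and doublets were not called. Symbols, positions and exon lengths came from GENCODE M21 on the same build (45143 of 46078 identifiers matched), promoters from RefSeq GRCm38.p6.

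Counts were summed over the cells of a group and divided by the summed total (CPM). A log2 ratio had 1 CPM added to both sides, which understates differences of low genes. A gene was called at 0.5 or beyond, and measured with a read in 5% of cells. Marker lists were compared over the same cells. Cells were called Y-positive or Xist-positive from 10 reads of one and fewer of the other. Each treatment is 1 sample, so nothing was tested. Named were the 10 genes, listed pathway genes called over all cells with the same sign in both blocks, the 2 most abundant genes of each list, and the 5 top partners of Id1, Id3, Smad6, Smad7, Acvrl1, Eng and Bmpr2. One result under this rule is not reported here. Hey1, Msx2, Smad9, Gdf2, Bmp10, Runx1, Kit and Nr2f2, and the Id2 and Dll4 split, were named after values were seen or for their role. The genes and lists were chosen with earlier results of these data known. Python 3.11.15, numpy 2.4.6, scipy 1.17.1 and R 4.3.3 were used, with scaling factors of edgeR 4.0.16 (TMM) and DESeq2 1.42.0 as alternatives. The summing and the correlations were tested on simulated data.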

Additional observations from a re-analysis of the deposited data

Results flagged for a closer look

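For 3 genes the log2 ratio of treated over Ctrl level pointed below -0.5 in 1 endothelial cluster and above 0.5 in another. These differences between clusters were not tested, since each treatment is 1 sample. Id2 was at -0.85 in cluster 1 and 1.17 in cluster 3, a difference of -2.02, and the first value is 0.03 without run 6. Smad7 was at -0.81 in cluster 1 and 1.06 in cluster 3, a difference of -1.87, and the first value is 0.09 in block 2. Bmper was at -2.06 in cluster 1, 0.51 in cluster 2 and -0.86 in cluster 3, differences of -2.57 and 1.36, and rests on 2 Ctrl and 2 treated cells in cluster 1 and on 1 Ctrl read in cluster 2.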

How the results depend on the processing

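No paired analysis was possible because the numbers in the labels count cells within a treatment and pair none of them. Of the 10 genes, 8 were below 0 over all cells, and 6 to 10 were with each run left out. The count past 0.5 was 1, and it was 3 over clusters 1 to 3, 2 in block 2, 3 in Y-positive cells of block 1 and 5 in Xist-positive cells of block 2. Within block 1, 9 were lower, but 5 over clusters 1 to 3, and 5 to 10 with a run left out. Within block 2, 7 were lower, but 4 by the mean of the cells' own CPM, 4 after thinning, and 4 to 8 with a run left out. The count of genes read in more treated cells was 5, but 2 from 10 reads on, 3 after thinning and 1 in block 1. The count of pairs at 0.2 or above was 2, but 4 by Pearson correlation, 5 in treated cells, 5 in block 2 and 3 with ranks within strata. Id1, Smad6, Acvrl1 and Eng were below 0 over all cells under each of the 20 alternatives, with ranges of -0.72 to -0.01, -0.91 to -0.03, -0.60 to -0.17 and -0.55 to -0.06. The alternatives reuse the same cells, and this count was not compared with that among all measured genes. Single runs reached 0.98 for Id1, 1.11 for Smad6, 0.53 for Acvrl1 and 0.33 for Eng.

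Of the 50 gene ratios over all cells, clusters 1 to 3 and each of these clusters, 36 lay on both sides of 0 over the alternatives. 27 of these were ratios not called, among them Bambi over all cells (-0.83 to 1.14), Smad6 in cluster 1 (-0.94 to 1.75), Id1 in cluster 3 (-1.07 to 1.31) and Smad7 in cluster 2 (-1.43 to 0.66). Those called that turned were as follows, and the cause was not tested. Acvrl1 in cluster 3 was 1.34 in block 1 and 1.10 in its Y-positive cells. Bambi in cluster 3 was -0.53 and -1.09 in those cells. Id2 in cluster 1 ranged from -1.07 to 0.0297 with a run left out, Smad7 in cluster 1 was 0.094 in block 2, and Smad6 in cluster 2 was 1.38 in Xist-positive cells of block 2. Bmper over all cells was 0.21 in block 1, -2.28 to 0.12 with a run left out and 0.24 in Y-positive cells of block 1. Over clusters 1 to 3 those were 0.56, -2.93 to 0.38 and 0.0436, and in cluster 1 block 1 gave 0.63 and leaving out a run -4.04 to 0.65. In cluster 3 Bmper was 0.00647 by the mean of the cells' own CPM and -1.36 to 0.25 with a run left out. A filter at 25% of cells left 6.18% of genes past 0.5, against 12.3%.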
